A study of Mus musculus with 8 samples.

Results

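The genes described here are DNA repair genes of mouse subcutaneous white fat, chosen by gene symbol. The symbols were those of the Xrcc, Rad, Ercc, Brca, Fanc, Msh, Mlh and Parp series, the kinases Atm and Atr, the repair polymerases and ligases, Ogg1, the Neil and Apex enzymes, Xpa and Xpc. The table analysed here held 55 such genes of 50952 rows, and 40 of the 55 were expressed highly enough to test. The same symbols name 87 genes in the GENCODE M21 annotation, and 32 of them, Parp1, Atm and Brca2 included, were not analysed here.

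The libraries came from wild-type C57BL/6J mice on calorie restriction (CR) for 6 months, between 3 and 9 months of age, or fed ad libitum (AL), with the fat taken at 9 months. The labels name 4 mice per diet, and the table holds 4 CR libraries (CR1 to CR4) and 3 AL libraries (AL2 to AL4). Each value is a TPM (transcript abundance that allows for gene length and sequencing depth). In the rows analysed here the smallest FDR (false discovery rate, the authors' adjusted p-value) in the authors' deposited table was 0.050, so repair genes under that value are outside every count below.

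Cells repair DNA through pathways that divide the work by the kind of lesion. Base excision repair removes oxidised or methylated bases, nucleotide excision repair cuts out bulky lesions such as those made by ultraviolet light, and mismatch repair corrects copying errors. Breaks through both strands are joined by end joining, which works at any time, or copied from the sister chromatid by homologous recombination, which is used mainly by dividing cells. The Fanconi anemia proteins open crosslinks between strands, and translesion polymerases copy past damage that is still in place. Mature fat cells, which make up most of the volume of this depot, do not divide.

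The rows analysed here held 42.9% to 45.0% of each library's TPM total in CR and 49.0% to 53.1% in AL, and the median change over the 9883 tested genes was -0.20 in log2(TPM + 1), CR minus AL. Each change is therefore given on the deposited scale and as a relative change, for which every library was first scaled so that its typical tested gene matched that of the others (median-ratio scaling). Reads recovered from the TPM steps totalled 4147828 to 5626650 per CR library and 5164041 to 8897778 per AL library in rows with a known gene length. The tested repair genes had between 17 and 2958 reads per library. Of the adipocyte markers 6 of 8 had a row, with summed levels of 50534 to 57925 TPM in CR and 65545 to 80106 TPM in AL. Most of that sum was Cfd (adipsin), with 37496 to 42836 TPM in CR and 51723 to 62269 TPM in AL, while Lep, Cidec and Pparg overlapped between the diets. The endothelial markers with a row, 5 of 6, summed to 248 to 306 TPM in CR and 321 to 365 TPM in AL, without overlap on the deposited scale. Tek and Pecam1 fell on that scale (limma adjusted p = 0.0210 and 0.0175). Kdr and Emcn overlapped between the diets, with relative changes of 0.20 and 0.06. The part of endothelial cells in the repair gene values was not tested. Epithelial markers summed to 0.831 to 9.83 TPM in CR and 1.68 to 3.76 TPM in AL. In whole tissue, fewer cells of a type and less RNA per cell cannot be told apart.

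Most of the 40 tested repair genes were slightly lower under calorie restriction, and their median change was somewhat below that of the typical gene. Changes on the deposited scale were negative for 32 of the 40 (80%) and for 73.8% of tested genes as a whole. Relative changes were negative for 28 of the 40 (70%), beside 51.4%. The difference between these shares was not tested. On the deposited scale 9 of 40 tested members fell and 0 rose, in a test in which 17.6% of all tested genes fell and 0.546% rose (limma, Benjamini-Hochberg adjusted p under 0.05 over all tested genes). The members that fell were Rad21, Xpa, Poll, Mlh3, Fancf, Fancg, Xrcc1, Fance and Polk. After median-ratio scaling 0 of 40 members were called, against 0.0506% of all tested genes. Before adjustment, 20 of 40 members passed p under 0.05 on the deposited scale, all lower in CR, while 33.2% of all tested genes were lower and 2.07% higher. With median-ratio scaling, 4 members passed as higher and 5 as lower, against 15.8% and 13.2% of all tested genes (9 of 40 or 22.5%, against 29.0%). Libraries of the diets did not overlap on the deposited scale for 18 lower members and 1 higher member, against 31.1% and 2.17% of all tested genes. With scaling this held for 5 lower and 4 higher members, against 12.7% and 13.9% (9 of 40, against 26.6%). All 40 members had at least 1 TPM in each of the 7 libraries, so none of them passed the expression filter through one diet alone. Without that filter 3 of 55 members fell, against 2.83% of 25455 genes, and with the voom method on recovered reads 13 fell, against 24.2%. With a library left out, Poll, Rad21 and Xpa were called each time, while the other 6 were not called without AL3 or without CR1.

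The changes were small among the 40 tested members. All their rows had an authors' FDR of at least 0.050, and repair genes under that value are not included. The median relative change was -0.08 over the 40 members and -0.01 over all tested genes, and on the deposited scale the medians were -0.28 and -0.20. Relative changes of members ran between -0.43 for Parp3 and 0.38 for Fancl, so that 40 of 40 lay within 0.5 log2 units of 0, as did 89.6% of all tested genes. Scaling shifted the typical gene upward by about the median deposited change, and 6 members with deposited-scale changes between -0.20 and -0.04 turned positive under median-ratio or quantile scaling, namely Ercc2, Ercc3, Parp16, Rad18, Rad54l2 and Xrcc4. In the authors' deposited table Mlh3 had an FDR of 0.0644. For the other members that fell in the limma test, the authors' FDR ran from 0.152 for Rad21 to 0.495 for Poll, with 0.188 for Xpa.

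**Figure D1:**
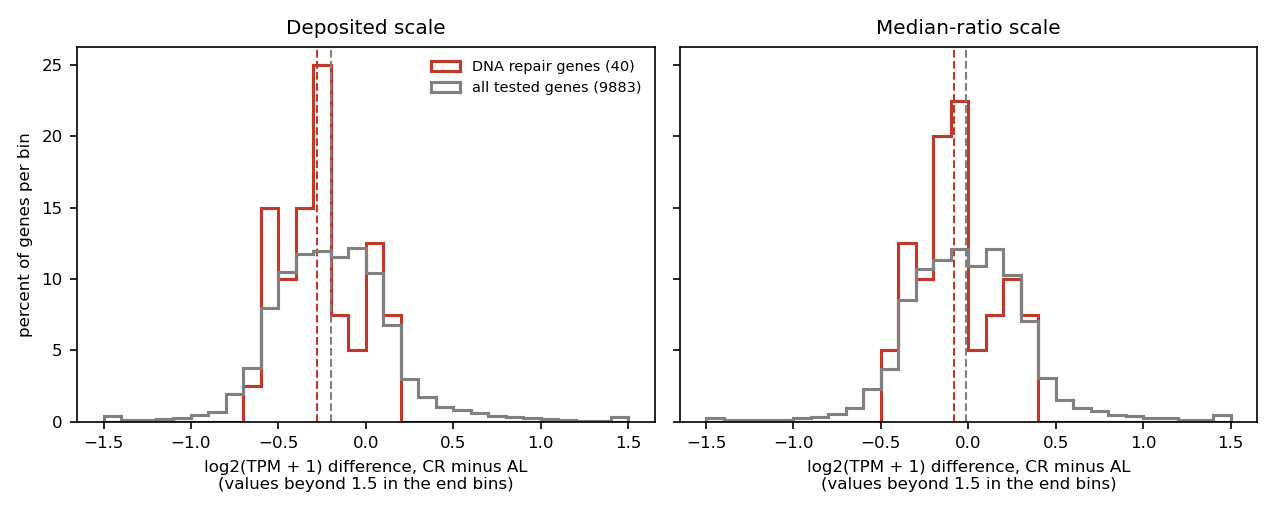
Distribution of the change in log2(TPM + 1), CR minus AL, for the 40 tested DNA repair genes (red) and all 9883 tested genes (grey), as percent of genes per bin, on the deposited scale (left panel) and after median-ratio scaling (right panel). Dashed lines mark the medians, -0.28 for the repair genes and -0.20 for all genes on the left and -0.08 and -0.01 on the right.

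**Figure D2:**
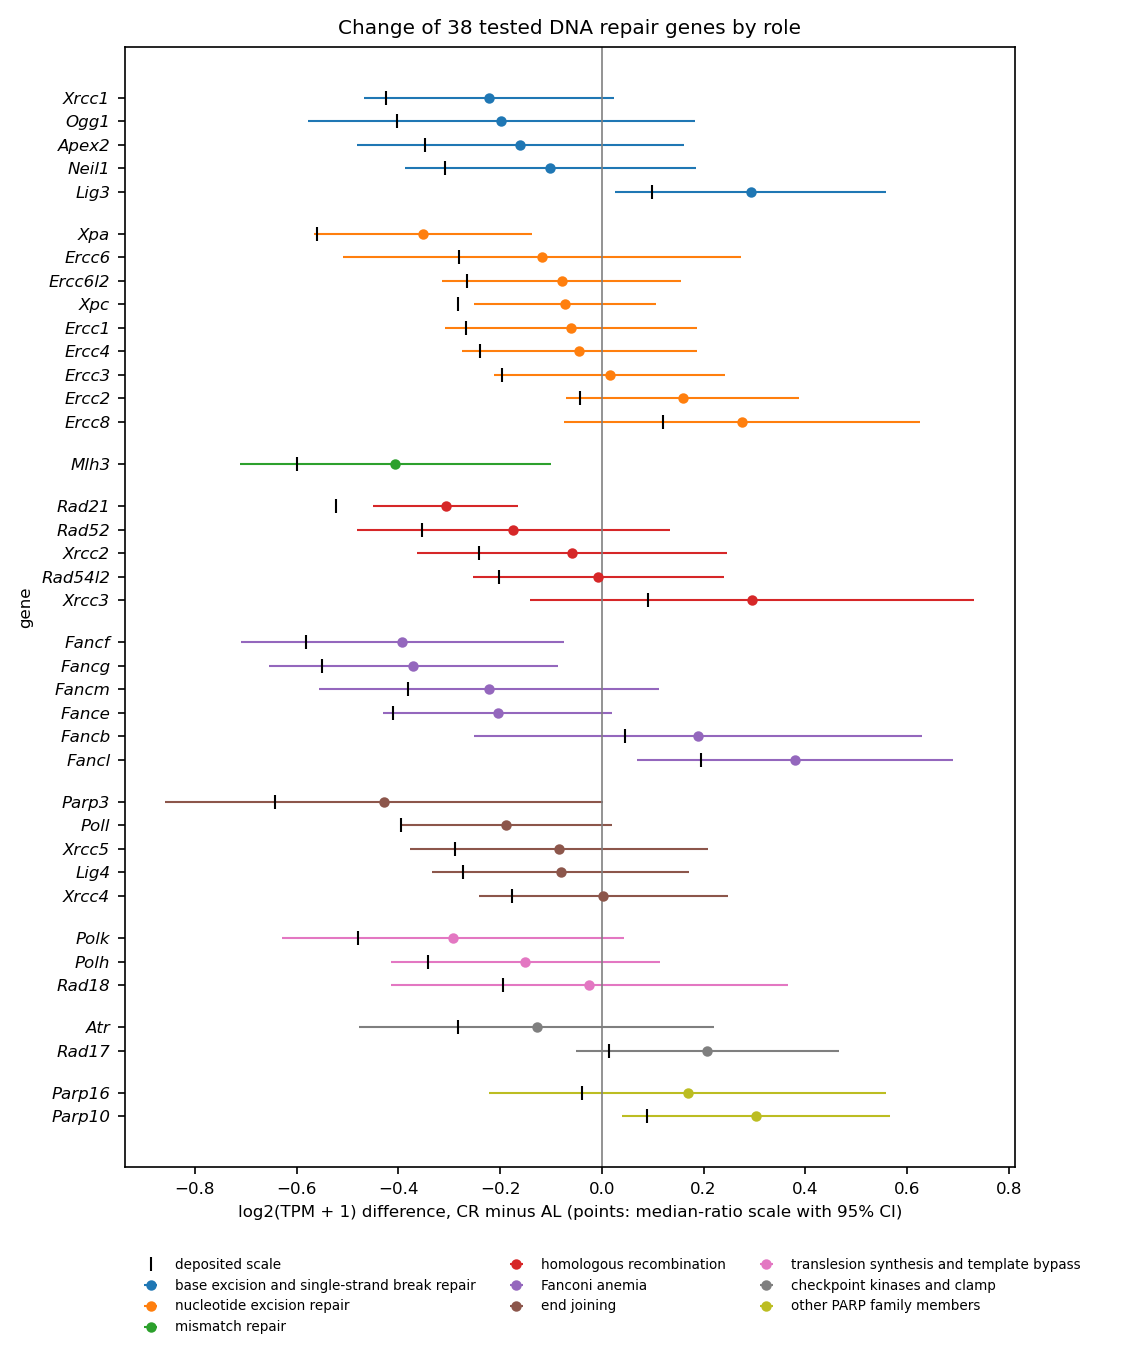
Change of 38 tested DNA repair genes, CR minus AL in log2(TPM + 1), grouped and coloured by role. Points with bars are relative changes with 95% confidence intervals from limma (4 CR and 3 AL libraries), and black ticks are the changes on the deposited scale, which lie further to the left for each gene.

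Promoter sequence is shown for Xpa, Mlh3, Fancg and Fancf, 4 of the 5 members that fell on the deposited scale with no overlap between diets on either scale (the fifth is Rad21). The windows come from RefSeq. The 250 bases before each annotated start are shown 5′ to 3′ on the gene's own strand, with matches to the searched motifs in capitals. Xpa lies on the minus strand (GRCm38.p6, chr4:46196312-46196561), and has 1 CCAAT match.
Xpa: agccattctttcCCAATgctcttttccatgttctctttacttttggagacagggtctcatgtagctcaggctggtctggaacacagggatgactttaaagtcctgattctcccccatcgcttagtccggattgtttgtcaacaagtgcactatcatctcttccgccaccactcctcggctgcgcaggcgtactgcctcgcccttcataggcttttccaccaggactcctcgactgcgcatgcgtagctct
Mlh3 lies on the minus strand (GRCm38.p6, chr12:85270600-85270849), with a CCAAT box on the opposite strand and a match to the motif of NRF1, a factor of nuclear genes for mitochondria.
Mlh3: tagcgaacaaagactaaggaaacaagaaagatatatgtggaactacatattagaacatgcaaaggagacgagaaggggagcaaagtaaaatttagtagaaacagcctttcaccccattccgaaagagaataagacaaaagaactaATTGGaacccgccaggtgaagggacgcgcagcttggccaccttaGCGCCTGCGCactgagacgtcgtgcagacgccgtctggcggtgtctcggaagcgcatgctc
Fancg lies on the minus strand (GRCm38.p6, chr4:43010302-43010551) and holds a form of the motif bound by E2F factors, the regulators of S-phase genes. In GENCODE M21 Fancg starts at position 43010506, inside this window, so that most of the window, the match included, lies within the gene there.
Fancg: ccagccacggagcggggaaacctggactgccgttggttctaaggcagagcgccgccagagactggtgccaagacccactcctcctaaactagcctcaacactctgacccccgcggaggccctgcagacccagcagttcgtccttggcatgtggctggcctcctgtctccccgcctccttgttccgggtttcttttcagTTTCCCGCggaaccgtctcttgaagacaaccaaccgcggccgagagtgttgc
Fancf lies on the minus strand (GRCm38.p6, chr7:51862268-51862517) and has 3 CCAAT matches.
Fancf: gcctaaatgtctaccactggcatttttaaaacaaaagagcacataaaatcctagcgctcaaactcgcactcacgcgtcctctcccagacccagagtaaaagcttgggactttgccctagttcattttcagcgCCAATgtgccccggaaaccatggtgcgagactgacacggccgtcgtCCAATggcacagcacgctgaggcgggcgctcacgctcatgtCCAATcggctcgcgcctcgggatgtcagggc

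Of the 40 tested members 30 had a window of this kind. The CCAAT box, searched as CCAAT on both strands, was present in 14 of 30 member windows (46.7%) and in 34.9% of the windows of all tested genes. The GC box GGGCGG was present in 46.7% of member windows and 59.3% of those of tested genes, and the E2F motif in its form TTTCCCGC in 3.3% and 1.8%. The NRF1 motif was found in 7 of 30 member windows (23.3%) and 9.1% of those of tested genes. The 7 genes were Ercc2, Ercc4, Ercc6, Lig4, Mlh3, Parp3 and Polh. The form TTTGGCGC of the E2F motif and the cyclic AMP response element TGACGTCA were found in 0 member windows and in 0.8% and 2.7% of those of tested genes. The ETS motif CCGGAAGT was found in 6.7% of member windows and 6.9% of those of tested genes, and the E-box CACGTG in 13.3% and 8.6%. These matches describe letters, and binding was not measured.

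Counts per role in this and the following paragraphs stand beside the 17.6% of all tested genes that fell on the deposited scale. The roles hold few members and were not tested as sets. Nucleotide excision repair had 10 tested members, of which Xpa fell on the deposited scale and the other 9 were not called. Xpa (ENSMUSG00000028329, chr4:46155347-46196311 in GRCm38) encodes the protein that checks the lesion and assembles the incision complex. Its levels were 16.9, 18.6, 19.1 and 16.3 TPM in CR1 to CR4, against 23.4, 27.5 and 28.8 TPM in AL2 to AL4. Each CR library lay under each AL library, with a change on the deposited scale of -0.56 ± 0.10 (SE; limma, adjusted p = 0.0143) and a relative change of -0.35 ± 0.09 (adjusted p = 0.0801).

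Xpc, the sensor of distorted DNA, had 22.2 ± 0.973 TPM in CR (SD, n = 4) and 27.3 ± 4.11 TPM in AL (SD, n = 3), a relative change of -0.07 ± 0.08. The helicases of the general factor TFIIH that open DNA around the lesion, Ercc3 and Ercc2, had 37.3 ± 2.7 and 12.5 ± 1.06 TPM in CR and 43.0 ± 4.57 and 12.9 ± 1.65 TPM in AL. Their relative changes, 0.02 ± 0.10 and 0.16 ± 0.10, were opposite in sign to those on the deposited scale (-0.20 and -0.04), and that of Ercc3 was -0.02 with quantile normalization. The nuclease that cuts on the 5′ side of the lesion is made of Ercc1 and Ercc4, with relative changes of -0.06 ± 0.11 and -0.04 ± 0.10. Ercc8 and Ercc6, which act where a lesion stalls RNA polymerase, had relative changes of 0.28 ± 0.15 and -0.12 ± 0.17, and Ercc6l2, a related helicase, one of -0.08 ± 0.10. Scaled levels of Ercc8 were higher in each CR library than in any AL library, with 2.52 to 3.19 TPM in CR and 2.25 to 2.79 TPM in AL on the deposited scale.

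In base excision and single-strand break repair, 1 of 5 tested members fell on the deposited scale. This was Xrcc1, the scaffold that gathers polymerase and ligase at a nick, with 10.4, 12.9, 10.003 and 9.87 TPM in CR1 to CR4, against 14.2, 15.7 and 14.3 TPM in AL2 to AL4. The groups did not overlap on that scale (change -0.42 ± 0.11, limma adjusted p = 0.0340), and they overlapped after median-ratio scaling (relative change -0.22 ± 0.11, adjusted p = 0.209). Lig3, the ligase that Xrcc1 binds, had 8.26, 7.51, 10.1 and 8.45 TPM in CR1 to CR4, against 8.42, 7.61 and 7.69 TPM in AL2 to AL4. The diets overlapped on the deposited scale (change 0.10 ± 0.12, adjusted p = 0.576), while the relative change was 0.29 ± 0.12 (unadjusted p = 0.0351, adjusted p = 0.145) with CR above AL in each library.

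The tested glycosylases that remove oxidised bases were not called on either scale. Ogg1, which excises oxidised guanine, had 15.1, 11.7, 13.9 and 15.1 TPM in CR1 to CR4, against 16.6, 16.2 and 24.2 TPM in AL2 to AL4. Each CR library lay under each AL library on the deposited scale (change -0.40 ± 0.15, limma adjusted p = 0.104), and the diets overlapped after median-ratio scaling. The highest value of Ogg1 was in AL4, and its relative change was -0.20 ± 0.17 (limma adjusted p = 0.449). Neil1, a glycosylase with a broader choice of oxidised bases, averaged 18.4 ± 2.57 TPM in CR (SD, n = 4) and 23.0 ± 3.27 TPM in AL (SD, n = 3), a relative change of -0.10 ± 0.12. Apex2, an endonuclease related to the main abasic site enzyme, had a relative change of -0.16 ± 0.14.

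Mismatch repair had 2 tested members, of which Mlh3 fell on the deposited scale. Mlh3, best known for its part in meiotic crossovers, had 5.12, 6.24, 6.87 and 7.44 TPM in CR1 to CR4, against 11.3, 9.81 and 9.45 TPM in AL2 to AL4. The diets did not overlap (change -0.60 ± 0.14, limma adjusted p = 0.0234; relative change -0.41 ± 0.13, adjusted p = 0.105). The MutS genes Msh4 and Msh5, which act in meiosis, were under 0.5 TPM in every library.

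Fanconi anemia genes included 6 tested members, and 3 of them fell on the deposited scale, where 17.6% of all tested genes fell. The 3 were Fance, Fancf and Fancg, all subunits of the core complex that marks a crosslink by attaching ubiquitin to Fancd2 and Fanci. Fancf, the adaptor of the complex, had 4.77, 5.78, 5.65 and 4.35 TPM in CR1 to CR4, against 6.84, 8.54 and 9.19 TPM in AL2 to AL4. Fancg had 3.54, 3.15, 4.08 and 3.44 TPM in CR1 to CR4, against 4.97, 6.31 and 5.72 TPM in AL2 to AL4. Neither gene's diets overlapped on either scale, with changes on the deposited scale of -0.58 ± 0.14 for Fancf and -0.55 ± 0.14 for Fancg (limma adjusted p = 0.0301 and 0.0307). Their relative changes were -0.39 ± 0.14 and -0.37 ± 0.12, with adjusted p = 0.118 and 0.108, and rest on 22 to 86 and 39 to 120 reads per library. Fance, which links the core complex to Fancd2, averaged 14.2 ± 1.64 TPM in CR (SD, n = 4) and 19.2 ± 1.49 TPM in AL (SD, n = 3), a change of -0.41 ± 0.11 on the deposited scale (adjusted p = 0.0346) and a relative change of -0.20 ± 0.10 (adjusted p = 0.205).

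Fancl, the ubiquitin ligase of the same complex, was not lower. It had 8.13, 5.94, 6.89 and 5.76 TPM in CR1 to CR4, against 5.67, 6.03 and 5.31 TPM in AL2 to AL4. The diets overlapped on the deposited scale (change 0.19 ± 0.14, limma adjusted p = 0.343) and not after median-ratio scaling (relative change 0.38 ± 0.13, unadjusted p = 0.0223, adjusted p = 0.12). Fancm, the translocase that recruits the core complex to DNA, had a relative change of -0.22 ± 0.14, and the X-linked subunit gene Fancb one of 0.19 ± 0.19.

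Rad21 had the smallest adjusted p of the members on the deposited scale. It encodes the kleisin subunit of cohesin, the ring that holds sister chromatids together and shapes chromatin loops, and serves break repair as well as these wider tasks. Rad21 (ENSMUSG00000022314, chr15:51962240-51991747 in GRCm38) had 87.7, 100.04, 90.7 and 90.8 TPM in CR1 to CR4, against 132, 143 and 125 TPM in AL2 to AL4. Every CR library was under every AL library, with a change of -0.52 ± 0.07 on the deposited scale (limma adjusted p = 0.0132). The relative change was -0.31 ± 0.06 (unadjusted p = 0.00109, adjusted p = 0.0717).

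The other tested members of the homologous recombination list were not called on either scale. Xrcc3, a recombination mediator, averaged 18.3 ± 1.21 TPM in CR (SD, n = 4) and 17.9 ± 6.21 TPM in AL (SD, n = 3), and its spread within AL, 11.4 to 23.7 TPM, covered all CR values. Xrcc2, another mediator, and Rad52, a strand annealing protein, had relative changes of -0.06 ± 0.13 and -0.17 ± 0.13. Rad54l2, a helicase that interacts with the androgen receptor and shares its name with a recombination factor, had one of -0.01 ± 0.11.

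Among genes of end joining, 1 of 5 tested members fell on the deposited scale. Poll (ENSMUSG00000025218, chr19:45552275-45560531 in GRCm38), the polymerase lambda that fills gaps at joined ends, had 17.3, 17.1, 17.4 and 16.0 TPM in CR1 to CR4, against 22.1, 21.3 and 24.5 TPM in AL2 to AL4. The CR values lay close together and under those of AL (change -0.39 ± 0.08, limma adjusted p = 0.0180), but the diets overlapped after median-ratio scaling (relative change -0.19 ± 0.09, adjusted p = 0.206). Parp3, an ADP-ribosyltransferase that promotes end joining, was among the most abundant members, with 64.9, 119, 98.9 and 84.9 TPM in CR1 to CR4, against 118, 164 and 145 TPM in AL2 to AL4. CR2 slightly exceeded AL2, and neither the deposited-scale change of -0.64 ± 0.20 (limma adjusted p = 0.0559) nor the relative change of -0.43 ± 0.19 (adjusted p = 0.175) was called. The end-binding Ku80 subunit gene Xrcc5, the ligase gene Lig4 and its partner Xrcc4 had relative changes of -0.08 ± 0.13, -0.08 ± 0.11 and 0.00 ± 0.11.

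**Figure D3:**
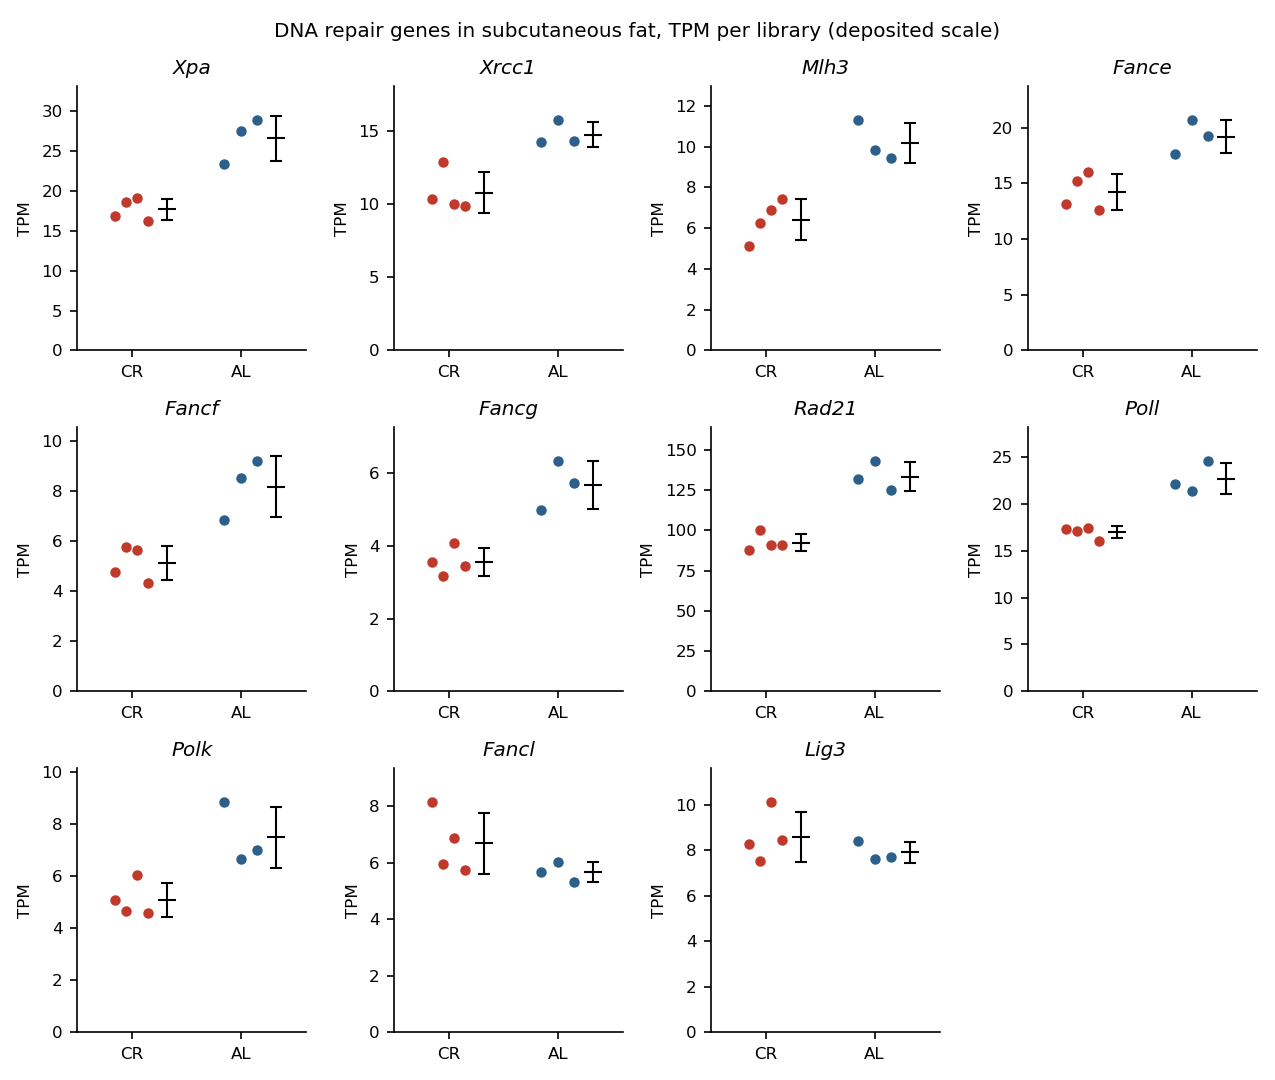
TPM per library on the deposited scale for the 9 repair genes that fell on that scale (Xpa to Polk) and for Fancl and Lig3, with CR in red and AL in blue. Points are libraries, and bars are the mean and SD (4 CR and 3 AL libraries). For the first 9 genes each CR point lies under each AL point.

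Translesion synthesis had 3 tested members, of which Polk, the polymerase kappa that copies past bulky guanine adducts, fell on the deposited scale. Polk had 5.08, 4.66, 6.04 and 4.58 TPM in CR1 to CR4, against 8.84, 6.68 and 7.00 TPM in AL2 to AL4. The adjusted p of 0.0495 (limma, change -0.48 ± 0.14) lay at the threshold, and the relative change was -0.29 ± 0.15 (adjusted p = 0.222). Polh, the polymerase eta that bypasses ultraviolet lesions, averaged 6.15 ± 0.598 TPM in CR (SD, n = 4) and 8.05 ± 0.633 TPM in AL (SD, n = 3), and its change of -0.34 ± 0.11 was not called (adjusted p = 0.0735). Rad18, the ligase that marks a stalled replication clamp for bypass, had a relative change of -0.02 ± 0.17.

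The checkpoint genes with a row were not called on either scale. Atr, the kinase that senses single-stranded DNA at stalled forks, had 2.10, 2.05, 2.20 and 2.04 TPM in CR1 to CR4, against 2.7, 3.43 and 2.26 TPM in AL2 to AL4. The highest library was AL3, and the relative change was -0.13 ± 0.15 (limma adjusted p = 0.593). Rad17, which loads the checkpoint clamp, had 8.56 ± 1.11 TPM in CR (SD, n = 4) and 8.43 ± 0.455 TPM in AL (SD, n = 3). Its relative change was 0.21 ± 0.11, and its deposited-scale change 0.01 ± 0.12 turned to -0.00122 with voom.

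The remaining Parp family members with a row attach single ADP-ribose units to their targets. Parp10 had 42.8, 47.4, 52.0 and 46.1 TPM in CR1 to CR4, against 36.4, 56.1 and 41.9 TPM in AL2 to AL4. AL3 held the highest value on the deposited scale and exceeded CR1 after median-ratio scaling, so the diets overlapped on both scales, and the relative change of 0.30 ± 0.11 was not called (limma unadjusted p = 0.0292, adjusted p = 0.134). Parp16, a protein of the endoplasmic reticulum membrane, averaged 21.3 ± 2.42 TPM in CR (SD, n = 4) and 22.1 ± 5.36 TPM in AL (SD, n = 3).

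Ratios between partner genes do not depend on how libraries are scaled. The pairs below were chosen after the values were seen and are described without a test. Within the Fanconi core complex, the ratio of Fancl to Fancg was 2.30, 1.88, 1.69 and 1.67 in CR1 to CR4, against 1.14, 0.956 and 0.928 in AL2 to AL4. That of Fancl to Fancf ranged from 1.03 to 1.71 in CR and from 0.577 to 0.83 in AL. In both pairs every CR library exceeded every AL library. Exons of Fancl, Fancf and Lig3 overlap a gene on the opposite strand in GENCODE M21, and with the strand setting of the counting unknown, reads of these neighbours may be included. The ratio of Lig3 to Xrcc1 averaged 0.812 ± 0.176 in CR (SD, n = 4) and 0.539 ± 0.0540 in AL (SD, n = 3), with CR2 inside the AL range. Ratios of Lig4 to Xrcc4, Ercc4 to Ercc1 and Ercc3 to Ercc2 overlapped between the diets, for instance 0.465 ± 0.0806 in CR and 0.461 ± 0.0810 in AL for the subunits of the Ercc4 and Ercc1 nuclease.

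**Figure D4:**
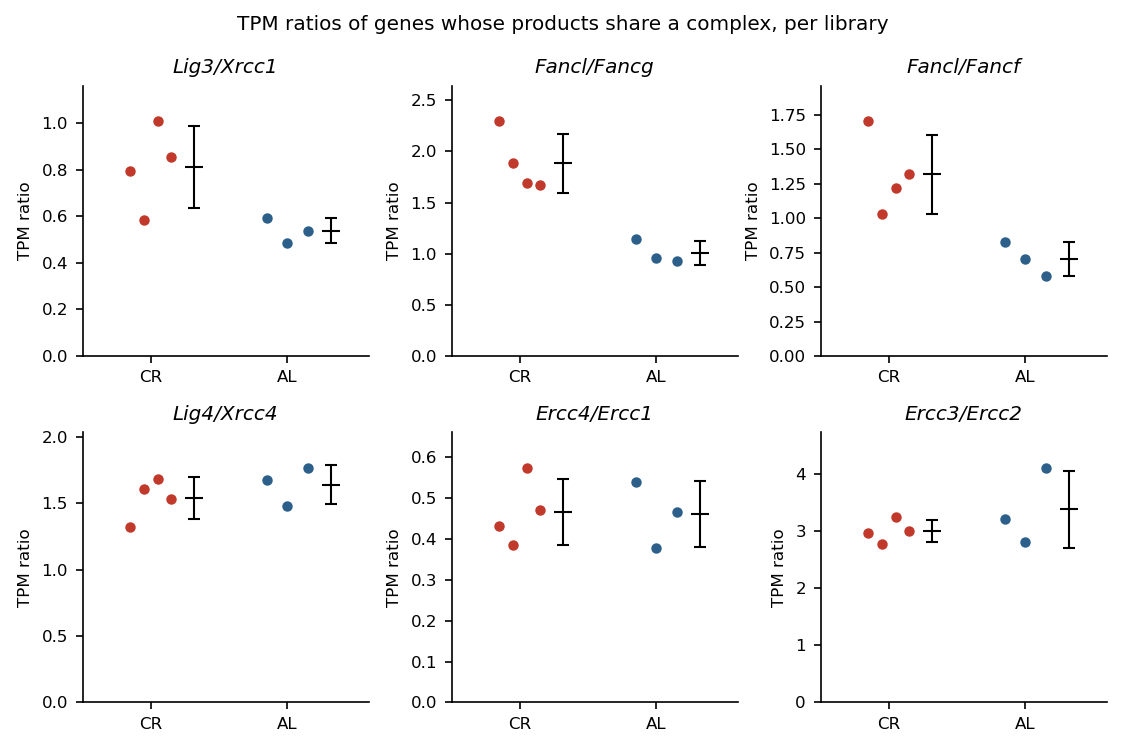
Ratio of the TPM of repair genes whose products share a complex, per library, with CR in red and AL in blue and bars for the mean and SD (4 CR and 3 AL libraries). The diets do not overlap for Fancl to Fancg and Fancl to Fancf, and they overlap for the other 4 pairs.

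The 15 members that were not tested had means between 0.0222 and 0.699 TPM. They include Brca1, Fancd2, Fanci, Polq, Rad54l and Rad51ap1, which copy or protect DNA during and after replication, and the meiotic genes Msh4, Msh5 and Rad21l. Others were Fanca, Rad51c, Rad54b, Rad51ap2 and the glycosylase gene Neil3. The mean was lower in CR for 14 of the 15 on the deposited scale, Rad54b being the exception, and for 12 of 15 after median-ratio scaling. Among the 3780 untested protein-coding genes with means in the same range, these shares were 70.3% and 66.2%. Brca1, which directs breaks to recombination, had 0.126, 0.172, 0.0907 and 0.0392 TPM in CR1 to CR4, against 0.442, 0.269 and 0.127 TPM in AL2 to AL4. The diets overlapped. Polq, the polymerase theta of microhomology joining, did not overlap, with 0.0555, 0.0757 and 0.0799 TPM in CR1 to CR3 and a listed 0 in CR4, against 0.341, 0.237 and 0.168 TPM in AL2 to AL4, from 8 reads in CR and 30 in AL.

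Besides Polq, the diets did not overlap after median-ratio scaling for Msh5 and Rad51ap1, and on the deposited scale they did not overlap for Fanci either. These 3 and 4 of 15 genes stand beside 8.07% and 10.8% of the untested protein-coding genes in the same range. Msh5 had 0.146, 0.0884 and 0.0934 TPM in CR1 to CR3 and a listed 0 in CR4, against 0.214, 0.416 and 0.393 TPM in AL2 to AL4. Rad51ap1, which stimulates strand pairing, had 0.167, 0.203, 0.322 and 0.209 TPM in CR1 to CR4, against 0.539, 0.409 and 0.376 TPM in AL2 to AL4. Fancd2, the protein marked by the Fanconi core complex, overlapped, with 0.102 to 0.455 TPM in CR and 0.446 to 0.579 TPM in AL. Summed over the 15 genes, levels were 2.61, 2.59, 3.46 and 2.05 TPM in CR1 to CR4, from 40 to 80 reads per library, against 5.27, 5.42 and 3.64 TPM in AL2 to AL4, from 113 to 145 reads. The sums did not overlap on the deposited scale and overlapped after median-ratio scaling, at 2.17 to 3.64 TPM in CR and 3.43 to 4.99 TPM in AL.

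**Figure D5:**
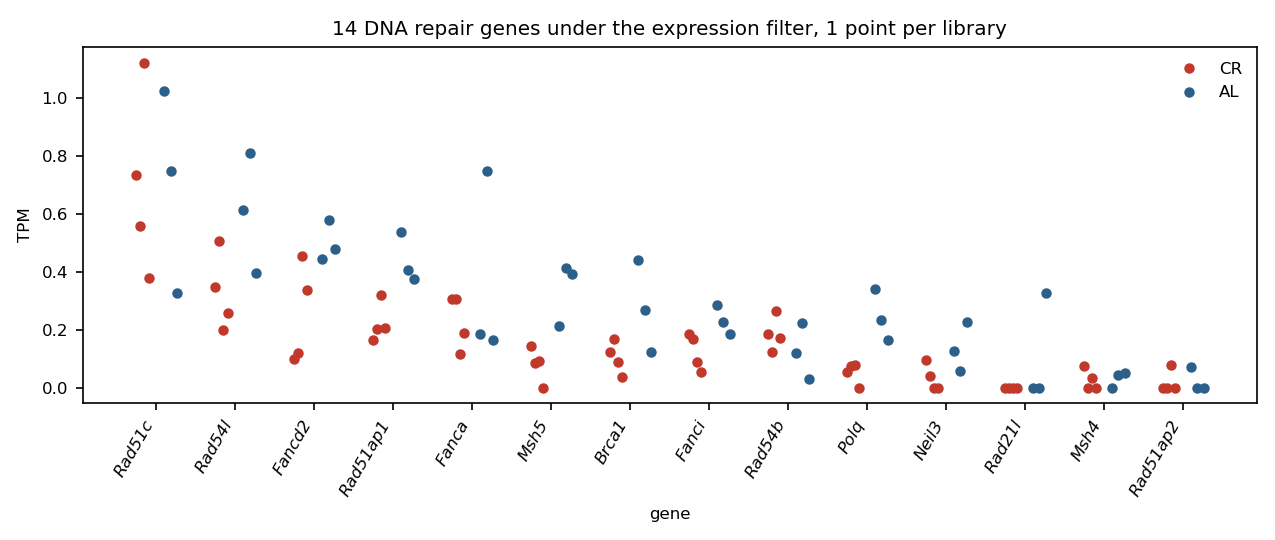
TPM per library on the deposited scale for 14 repair genes under the expression filter, ordered by mean, with CR in red and AL in blue and 1 point per library. Nearly all points lie under 1 TPM, and the mean is lower in CR for 13 of the 14 genes.

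Of 9 markers of dividing cells 5 had a row (Ccna2, Cdk1, Aurkb, Birc5 and Ccnb1), and their summed level was 1.32, 0.936, 1.34 and 0.965 TPM in CR1 to CR4, against 4.58, 3.12 and 2.09 TPM in AL2 to AL4. None of the 5 was expressed highly enough to test, and singly Cdk1, Birc5 and Ccnb1 overlapped between the diets while Ccna2 and Aurkb did not. The B cell markers with a row, 5 of 6, summed to 0.447 to 2.35 TPM in CR and 2.75 to 8.62 TPM in AL, while the T cell markers, 6 of 7, summed to 3.67 to 9.11 TPM in CR and 3.63 to 8.42 TPM in AL. The diets did not overlap for the first of these marker sums and for the B cell sum, and they overlapped for the T cell sum. The part of dividing cells or B cells in the repair gene values was not tested.

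Repair genes outside the symbol rule were described from a list of 96, of which 71 had a row and 60 were tested. On the deposited scale 20 of the 60 fell (33.3%) and 0 rose, beside 17.6% and 0.546% of all tested genes. On the relative scale 0 were called, while 12 positive and 15 negative changes had an unadjusted p under 0.05 (45.0%, beside 29.0% of all tested genes). The median relative change of the 60 was -0.10. Rfc1, the large subunit of the loader that places the sliding clamp on DNA, had 23.0, 23.4, 24.3 and 23.8 TPM in CR1 to CR4, against 34.6, 35.5 and 32.7 TPM in AL2 to AL4, and fell on the deposited scale (-0.52, limma adjusted p = 0.0111; relative change -0.31 ± 0.06, adjusted p = 0.0717). H2afx, the histone variant that is phosphorylated around breaks, averaged 23.5 ± 3.47 TPM in CR (SD, n = 4) and 40.1 ± 5.61 TPM in AL (SD, n = 3) and fell likewise (-0.75, adjusted p = 0.0163; relative change -0.54 ± 0.16). Xab2, an Xpa-binding protein of transcription-coupled repair and splicing, and Mms19, which delivers iron-sulfur clusters to repair enzymes, also fell on that scale, and their relative changes were -0.34 ± 0.07 and -0.35 ± 0.10.

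At the other end of that list stood genes with positive relative changes that were not called on either scale. Cetn2, the centrin that joins Xpc in damage recognition, averaged 56.9 ± 2.81 TPM in CR (SD, n = 4) and 52.0 ± 2.56 TPM in AL (SD, n = 3), a relative change of 0.34 ± 0.06 (limma adjusted p = 0.0717). Parg, which degrades poly(ADP-ribose), the TFIIH subunit gene Gtf2h1 and the Fancm partner gene Faap24 had relative changes of 0.32 ± 0.07, 0.29 ± 0.07 and 0.43 ± 0.10 (adjusted p = 0.0717, 0.0754 and 0.0754). Of 16 damage response targets of p53, 8 were tested. On the deposited scale, where 17.6% of all tested genes fell, 2 of the 8 fell, the death effector gene Bax and the mTOR inhibitor gene Ddit4. Their relative changes, -0.11 ± 0.07 and -0.46 ± 0.21, were not called. Over the 8 the relative changes ran from -0.46 to 0.57, with a median of 0.10, and 0 were called. Before adjustment 1 positive and 0 negative relative changes had a limma p under 0.05 (12.5%, beside 29.0% of all tested genes).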

How the data were processed

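Per the labels' protocols, RNA was extracted with TRIZOL and made into directional libraries, with depletion of ribosomal RNA and purification of poly-A RNA both named. Tools listed in the submitters' processing notes, with no roles, are STAR 2.7.10b, featureCounts 2.0.3, edgeR 3.38.4, SAMtools 1.17 and FastQC 0.12.1, and the build listed is GRCm39. The sources used here name neither the annotation nor the strand setting of the counting. Exons of 17 of the 40 tested members overlap another gene in GENCODE M21. A neighbour lies on the same strand for Parp10 (protein-coding Plec), Atr (a small nuclear RNA gene) and Ercc2 (a microRNA gene). Values of the 17, including those of Xpa, Fancf, Fancl, Lig3, Parp3 and Parp10, may hold reads of the neighbour.

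Values as deposited are the authors' TPM for each gene and library, plus the authors' FDR, an adjusted p-value per gene. Columns were assigned to diets by name, with 0 left over. Genes that reached 1 TPM in 4 or more libraries entered a two-sided limma 3.58.1 test (R 4.3.3) on log2(TPM + 1), which had a variance trend and diet as its sole term. Benjamini-Hochberg adjustment covered all 9883 tested genes, and genes under 0.05 were called, on the deposited scale and after median-ratio scaling. The added 1 TPM understates changes of low genes. SE of a change covers 4 CR and 3 AL libraries.

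Reads were recovered from TPM, gene length (GENCODE M21) and the value of 1 read per library; 94.55% of 22040 rows judged were within 0.05 of whole numbers. They served for depth and voom. Scripts were tested on simulated data. The members, lists and named genes were chosen with earlier results of these data known. The naming rule took Atr, Brca1, Xrcc1 and Ogg1, each called member, the 5 smallest unadjusted p and the 5 largest changes without overlap per direction after scaling, the 2 most abundant tested members per role, and 4 genes per direction of the other repair list. Other members were named to account for each one, with their values seen. The labels do not say which library came from which mouse, so p-values measure the spread between libraries. Alternatives were pseudocounts of 0.1, 0.5 and 5, other filters, no variance trend, robust moderation, quantile normalization, voom and leaving out each library. Python 3.11.15 served for tables and plots. Some genes and list members are not reported here.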

Additional observations from a re-analysis of the deposited data

Results flagged for a closer look

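Xrcc1 stood out for 1 library within CR. CR2 had 12.9 TPM, while the other CR libraries lay between 9.87 and 10.4 TPM, a gap of 0.834 of the range of the group, above Dixon's critical value for 4 samples. Rad51ap2 was flagged in the same way, at 0.0813 TPM in CR3 from 1 read, with the other CR libraries listed at 0. Chance flags about 1 in 20 groups, and 2 of the 55 repair genes were flagged.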

How the results depend on the processing

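On the deposited scale the 9 repair genes called became 3 without a filter, and between 3 and 6 with a library left out, with 3 without AL3, 4 without AL4, 3 without CR1, 5 without CR2 and 4 without CR4. The cause was not tested. Poll, Rad21 and Xpa were called under each of these settings, and voom on recovered reads called 13 members (24.2% of all genes fell there). After median-ratio scaling 0 repair genes were called under any setting run, and between 6 and 10 had an unadjusted p under 0.05 with a library left out. These counts cover only rows with an authors' FDR of at least 0.050, so they do not show how repair genes under that value behave. Over all genes the 1796 calls on the deposited scale became 742 without a filter and 662 to 1596 with a library left out. The count was 725 without AL3, 662 without CR2, 765 without CR1, 1032 without CR3 and 1170 without CR4. The 5 calls after median-ratio scaling became 3 at a pseudocount of 0.1, 2 without a filter, 0 with a mean of at least 5 TPM, 0 with voom and 0 to 71 with a library left out.

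Outside the naming rule, the relative changes of Rad18 and Rad54l2, -0.02 and -0.01, were 0.01 and 0.02 with quantile normalization. Among the genes taken by the naming rule, directions reversed for 5, none of them called. The relative change of Ercc3 was -0.00578 with a mean of at least 5 TPM, -0.0246 with quantile normalization and -0.0494 to 0.114 with a library left out. The deposited-scale change of Rad17 was -0.00122 with voom and -0.0560 to 0.0655 with a library left out. With a library left out, deposited-scale changes ran from -0.0455 to 0.260 for Parp10, from -0.18 to 0.14 for Parp16 and from -0.19 to 0.31 for Xrcc3, and the relative change of Parp16 from -0.0120 to 0.363. No paired analysis was possible because the columns carry numbers that differ from those of the labelled mice and nothing ties CR to AL mice. Fancb, Fancf and Fancg had the fewest reads of the tested members, with 17, 22 and 39 in their lowest libraries.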
